A study of Homo sapiens with 8 samples.

Results

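The 4 arrays described here followed 1 stably infected line of SHSY5Y cells, called PLKO in the sample titles, through differentiation with retinoic acid and BDNF. SHSY5Y is a human neuroblastoma line of neural crest origin, and its cells extend neurites when they are treated in this way. All arrays with PLKO in the title were taken: replicates 2 and 3 of non-differentiated cells (NDF) and replicates 1 and 2 of differentiated cells (DF), which are 4 of the 8 arrays of the series. The readout was 18377 genes, each represented by 1 row of the Affymetrix Human Gene 1.0 ST array. Both conditions were grown on laminin. The NDF cells stayed in growth medium with 10% FC serum, while the DF cells received 10 µM retinoic acid in serum-containing medium for 5 days and then 2 nM BDNF in medium without serum for 3 days. Retinoic acid, BDNF, serum withdrawal and the days in culture therefore cannot be told apart, and neither can a change within cells and a change in the mixture of cells. The other 4 arrays hold another stable line, V71, under the same 2 conditions, and are used where the change in PLKO is compared with that in V71. The sample labels mark PLKO as the line with the shRNA and V71 as the control, whereas the methods of the study describe an empty pLKO.1-Puro vector as the control. The catalogue number that the methods give for the shRNA also ends in the digits of V71, although the methods do not use that title. Because labels and methods conflict, both lines are called here by the names in their titles and nothing is assigned to the shRNA. The gene targeted by the shRNA is not analysed here. Each line had been selected in puromycin and was sampled as 2 biological replicates a condition, and whether a line was 1 clone or a pool is not given in the sources used here.

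Retinoic acid enters cells, is carried by cellular binding proteins, and binds nuclear receptors (RARA, RARB and RARG) that sit with RXR partners on DNA and switch on transcription of their targets. Among the first targets are genes of the pathway itself, which store or break down retinoids. In neuroblastoma cells retinoic acid slows division and raises TrkB, the receptor tyrosine kinase for BDNF. BDNF bound to TrkB then signals through the ERK, PI3K and phospholipase C pathways, which act on survival and neurite growth.

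Values are log2 expression after RMA, so a difference of 1 is a 2-fold change, and every difference is DF minus NDF in PLKO unless V71 is named. A gene was called when its adjusted p in limma was under 0.05 and its change was at least 1.5-fold. By this rule 529 of 18377 genes rose (2.88%) and 764 fell (4.16%), and these shares are the background for the gene lists below. Of the genes that rose, 159 changed at least 2-fold and 25 at least 4-fold. Of those that fell, 366 changed at least 2-fold and 71 at least 4-fold, so the larger changes were mostly falls. The median difference over all genes was 0.01. The replicate arrays lay close together, with a Spearman correlation of 0.9968 for the NDF pair and 0.9947 for the DF pair, the lowest of the 4 groups, against 0.985 to 0.987 between NDF and DF. The median SD between 2 replicates was 0.0588 in NDF and 0.0845 in DF. With so few arrays, 55.1% of all genes had NDF and DF values that did not overlap, so the absence of overlap was common, and a call rests on the size of the change against its error. Of 18 measured markers of sympathetic neuroblasts, none lay below the lower quartile of the arrays in both conditions, and the log2 of their summed linear values was 13.06 to 13.09 in NDF and 12.91 to 13.01 in DF. Of 12 measured Schwann cell markers, 2 lay below it in both conditions and none was called, and the log2 of their sum was 7.67 to 7.71 in NDF and 7.62 to 7.76 in DF. Probes differ in brightness and the lists in length, so each sum can be compared between arrays but not with the other.

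The retinoid pathway itself was called in 6 of 21 measured receptors, carriers and enzymes, all of them higher, with a list median of 0.07. RARB, the receptor gene that is a classical target of its own ligand, gave 4.77 and 4.43 on the NDF arrays and 6.87 and 7.16 on the DF arrays. The DF values lay well above the NDF values, and RARB rose 5.34-fold (log2 difference 2.42, SE 0.13, adjusted p = 3.35e-06). DHRS3, a short-chain dehydrogenase that turns retinaldehyde back into retinol, went from 3.86 and 3.79 to 6.96 and 7.09, a 9.18-fold rise (log2 difference 3.20, SE 0.09, adjusted p = 2.33e-07). CRABP2, which carries retinoic acid to the nucleus, rose 2.98-fold, from 5.31 and 5.18 in NDF to 6.69 and 6.95 in DF. Both genes were clearly separated between the conditions. CYP26B1, an enzyme that breaks down retinoic acid, rose by 1.31 on the log2 scale, from 3.49 and 3.64 to 4.91 and 4.84. Its relative CYP26A1, among the most strongly induced retinoid targets in many cell types, was 3.71 and 3.59 in NDF and 3.97 and 3.99 in DF, a difference of 0.33 that was under the fold limit. RARG was on the other side, with a difference of -0.58 (adjusted p = 0.0022) just under the fold limit, and it was called lower when NDF replicate 2 or DF replicate 2 was left out. The wider list of 24 textbook retinoid targets held 5 that rose and 1 that fell, RAI14, at -1.70. MEIS1, a homeobox partner of HOX proteins, was among those that rose, by 0.82.

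The promoter of RARB is shown because it holds the best known DNA element of this pathway. The sequence is RefSeq's, from the 150 bases before the first listed start of the gene (GRCh38.p14, chr3:25428113-25428262, + strand), with the retinoic acid response element in capitals. The element was searched on both strands as a pair of 6-base sites in the same orientation, 5 bases apart, each of which could read AGGTCA with no change, AGTTCA as a variant of it, GGTTCA as another, or lastly GGGTCA.
RARB: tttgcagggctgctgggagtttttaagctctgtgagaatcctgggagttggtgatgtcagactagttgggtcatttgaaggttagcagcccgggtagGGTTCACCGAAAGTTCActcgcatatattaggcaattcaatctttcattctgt
The element spans bases -53 to -37 counted from the start. It was found in 9 of 14210 promoters (0.0633%) taken from 250 bases before to 50 after the first listed start, and in 1 of the 414 promoters of genes that rose, which was that of RARB, as well as in 1 of the 622 of genes that fell. These are letters in 1 window of each gene, and elements further away were not searched.

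Of 27 HOX genes measured 3 rose and none fell, all 3 from the HOXD cluster. HOXD10 went from 4.37 and 4.42 to 5.97 and 5.95 (log2 difference 1.57) and HOXD9 from 6.09 and 6.19 to 7.53 and 7.52 (1.39). HOXD4 rose by 0.61, and was 0.52 without NDF replicate 2 and 0.54 without DF replicate 2, below the fold limit in both cases. HOX genes lay down position along the body axis and respond to retinoic acid in the embryo in an order that follows their place in the cluster. Among 27 nuclear receptors outside the retinoid family, 3 rose and 1 fell. NR2F1, the orphan receptor COUP-TFI, rose 2.98-fold, from 6.44 and 6.51 to 8.02 and 8.08. ESRRG rose by 1.12 and RORA by 0.91 on the log2 scale, with RORA at 0.79 (adjusted p = 0.059) without NDF replicate 3. RORB, another retinoid-related orphan receptor, fell 6.13-fold, from 7.86 on both NDF arrays to 5.36 and 5.14.

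NTRK2, which encodes TrkB, had the largest rise of all 18377 genes. Its values were 3.82 and 3.84 on the NDF arrays and 8.45 and 8.63 on the DF arrays, a 26.2-fold rise (log2 difference 4.71, SE 0.10, adjusted p = 6.56e-08). Thus the receptor for the BDNF added in the later step went from below the median of the arrays to above their upper quartile. SORL1, a sorting receptor that moves TrkB and other cargo between the Golgi and endosomes, rose by 0.86, and these 2 were the only genes called among 14 neurotrophins and receptors. NTRK3, the receptor for neurotrophin-3, differed by -0.28 (adjusted p = 0.141) and BDNF itself by -0.23 (adjusted p = 0.264), and neither was called. NGFR, the p75 receptor, gave 5.30 and 5.23 in NDF and 5.18 and 5.12 in DF, which is within the error of the test.

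Genes that ERK signaling induces were called in 8 of 37 cases, 6 higher and 2 lower. The feedback inhibitors were the largest of them. SPRY1 went from 6.24 and 6.25 to 8.09 and 8.17, a 3.70-fold rise, and SPRY4 from 6.11 and 6.08 to 7.23 on both DF arrays, a 2.19-fold rise. DUSP6, a phosphatase that removes phosphate from ERK, rose by 0.78, and the transcription factor EGR1 by 0.70. In contrast, SPRY2 fell by 0.96, from 7.69 and 7.83 to 6.8 and 6.82, so members of 1 inhibitor family moved in opposite directions. MYC, the other gene of this list that fell, is taken up with the cell cycle.

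**Figure D1:**
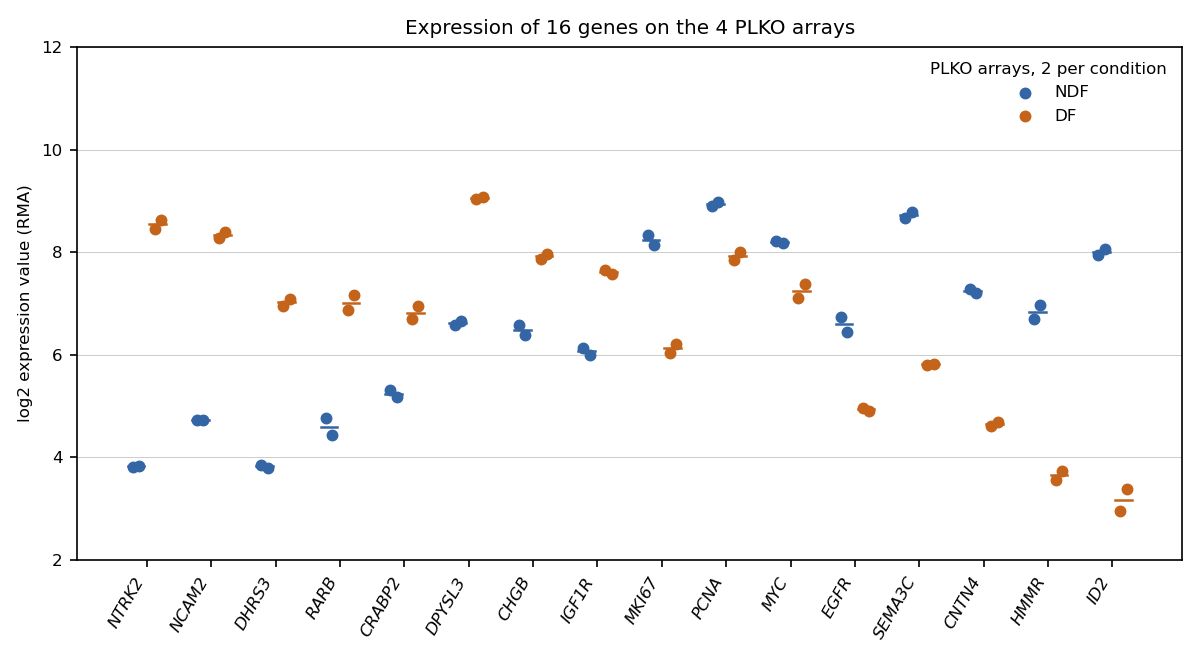
Log2 expression value after RMA (y axis) of 16 genes (x axis) on the 2 NDF and the 2 DF arrays of PLKO. Each point is 1 array and each bar the mean of 2 arrays. NTRK2 goes from 3.82 and 3.84 to 8.45 and 8.63, and ID2 from 7.94 and 8.06 to 2.96 and 3.39, with the other genes in between.

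The genes of cell division fell almost as 1 block. Of 69 genes of G2 and mitosis, 68 fell and none rose, with a median of -1.90, and the remaining one, INCENP, was at -0.56, just under the fold limit, and passed at -0.62 without DF replicate 1. MKI67, the proliferation antigen Ki-67, was 8.34 and 8.14 in NDF and 6.03 and 6.22 in DF, a 4.33-fold fall (log2 difference -2.11, SE 0.11, adjusted p = 2.35e-06). HMMR, a spindle and hyaluronan-binding protein, showed the largest fall of the list, from 6.70 and 6.98 to 3.56 and 3.74, which is 9.11-fold. DLGAP5, which stabilizes spindle microtubules, fell 7.29-fold, from 7.72 and 7.88 to 4.79 and 5.09. CENPE, the kinesin of the kinetochore, fell 6.04-fold. The NDF and DF values did not overlap in any of the 69 genes. Over all genes 55.1% had no overlap, so its absence says little about the smallest falls of the list.

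DNA replication and S phase showed the same direction with smaller changes: 49 of 55 genes fell, none rose, and the median was -0.93. At a limit of 2-fold, 24 of them passed. TYMS, which makes thymidylate, fell 3.04-fold from 8.62 on both NDF arrays to 6.98 and 7.04. RRM2, a subunit of ribonucleotide reductase, fell by 1.52 and MCM10, a replication initiation factor, fell by 1.45. PCNA, the sliding clamp of DNA polymerase, went from 8.90 and 8.97 to 7.84 and 8.01, a 2.01-fold fall. The 6 genes of the list that were not called (MCM7, PRIM2, LIG1, RPA2, SLBP and CCNE1) had differences of -0.47 to -0.34.

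Replication-dependent histones of the cluster on chromosome 6 were called lower in 37 of 44 cases and higher in none, with a median of -1.45. H4C4 fell 16.3-fold, from 10.43 and 10.74 to 6.54 and 6.59. H3C7 fell 9.30-fold and H2BC3 6.26-fold, although H2BC3 was spread widely within each condition, at 6.05 and 6.81 in NDF and 3.42 and 4.14 in DF. These genes are close copies of each other and share sequence, so probes may read more than 1 member, and the histones that were called are not 37 independent measurements. A histone list that the study chose on these arrays holds 12 symbols, of which 7 were measured here as single genes. All 7 were called lower in PLKO, which is no independent evidence of the direction. In V71, 5 of the 7 were called lower, and the difference between the lines was called for none. The study lists these histones as reduced only in its control cells.

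Promoters of the cell cycle genes are shown because these groups share known elements: the CHR element TTTGAA with the CCAAT box in genes of G2 and mitosis, and the E2F site in genes of S phase. Each line gives the 150 bases before the first listed start in RefSeq (GRCh38.p14): HMMR at chr5:163460482-163460631 on the + strand, DLGAP5 at chr14:55191586-55191735 on the - strand, MKI67 at chr10:128126424-128126573 on the - strand, PCNA at chr20:5126623-5126772 on the - strand and TYMS at chr18:657503-657652 on the + strand. In HMMR, DLGAP5 and MKI67 the capitals mark TTTGAA and CCAAT read on either strand, and in PCNA and TYMS they mark the E2F site, searched on both strands as TTTGGCG in its first form, TTCCCGC in another and TTTCCCG in the last.
HMMR: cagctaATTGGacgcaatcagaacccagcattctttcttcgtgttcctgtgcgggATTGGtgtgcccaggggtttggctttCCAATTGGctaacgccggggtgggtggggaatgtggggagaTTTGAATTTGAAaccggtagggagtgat
DLGAP5: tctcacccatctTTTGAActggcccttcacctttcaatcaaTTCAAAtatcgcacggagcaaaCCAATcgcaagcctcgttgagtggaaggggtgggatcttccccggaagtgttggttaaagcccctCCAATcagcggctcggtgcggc
MKI67: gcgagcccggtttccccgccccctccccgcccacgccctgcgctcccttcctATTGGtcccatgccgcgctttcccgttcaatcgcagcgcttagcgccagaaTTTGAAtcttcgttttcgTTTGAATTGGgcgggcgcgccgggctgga
PCNA: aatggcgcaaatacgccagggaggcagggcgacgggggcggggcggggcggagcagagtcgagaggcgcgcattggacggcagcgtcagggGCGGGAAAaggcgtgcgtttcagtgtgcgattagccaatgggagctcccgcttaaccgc
TYMS: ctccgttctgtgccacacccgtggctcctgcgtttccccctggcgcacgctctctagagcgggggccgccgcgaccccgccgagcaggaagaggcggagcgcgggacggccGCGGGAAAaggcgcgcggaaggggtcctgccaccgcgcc
HMMR and MKI67 each hold 2 copies of TTTGAA within the last 50 bases before the start, next to each other in HMMR. In MKI67 the second copy runs into a reversed CCAAT box. In PCNA and TYMS the capitals are 2 overlapping matches of the E2F site (the last form and the one before it) read on the opposite strand. In the window from 250 bases before to 50 after the start, TTTGAA was found in 37 of the 58 promoters of G2 and mitosis genes that RefSeq's table held (63.8%), against 11.9% of all promoters, and together with CCAAT in 29 of them against 4.86%. The E2F site was in 31 of 47 promoters of S phase genes (66%) against 14.1% of all. Over all genes that fell, 139 of 622 promoters held TTTGAA (22.3%), compared with 44 of 414 (10.6%) for genes that rose. CCAAT was in 34 of 39 histone promoters (87.2%) against 36.3% of all promoters, and these promoters are themselves close copies. A match is a description of the sequence and was not linked to binding of a factor.

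The genes that control entry into the cycle moved less. Of 23 G1 cyclins, kinases and inhibitors, 3 fell and none rose, and the list median was -0.15. CDK2, the kinase that drives S phase, fell 2.69-fold from 7.32 and 7.40 to 5.84 and 6.01. RBL1, which encodes the pocket protein p107, fell by 1.05, and CDK4 fell by 0.63. CCND1, cyclin D1, differed by -0.52 (adjusted p = 0.00835), under the fold limit. The inhibitors CDKN1A and CDKN1B, p21 and p27, had differences of 0.23 (adjusted p = 0.212) and 0.22 (adjusted p = 0.242), neither of them called. MYC was the only 1 of 12 genes of the MYC and MAX network that was called, and fell 1.92-fold, from 8.21 and 8.17 to 7.11 and 7.38. MYCN, which drives many neuroblastomas but is not amplified in SHSY5Y, stayed at 5.76 on both NDF arrays and 5.67 and 5.6 in DF, a difference of -0.13 that was not called.

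**Figure D2:**
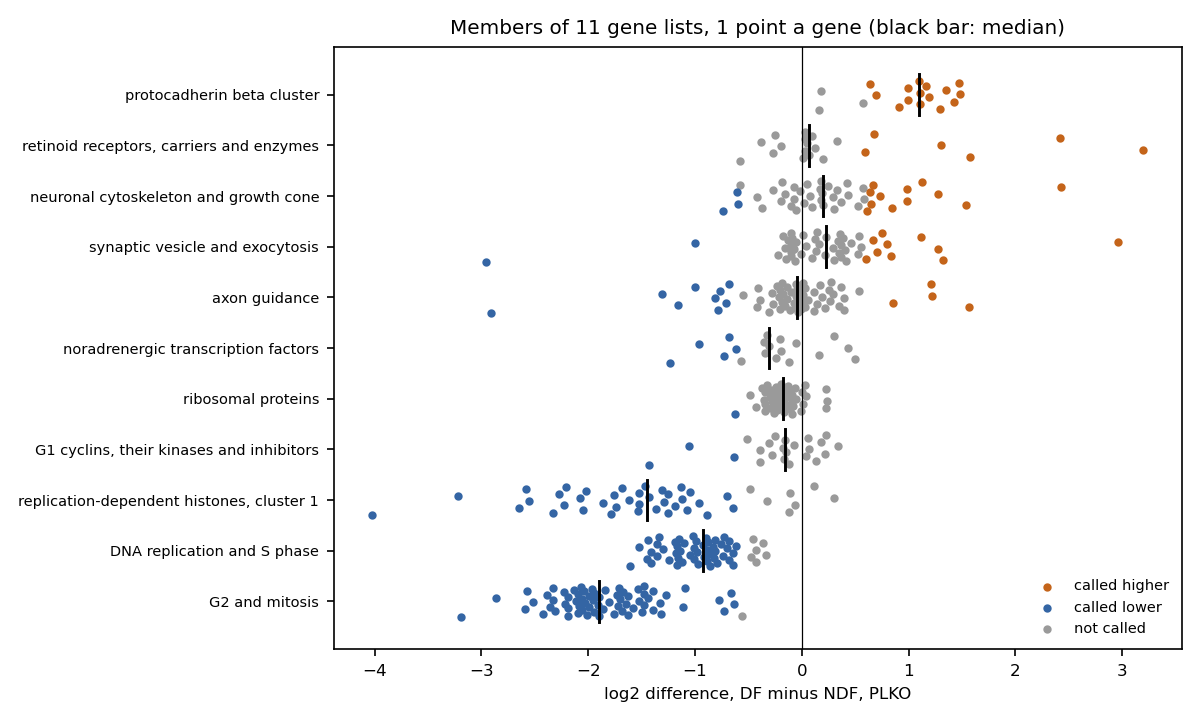
Log2 difference between DF and NDF in PLKO (x axis) for every measured gene of 11 lists (y axis). Each point is a gene, coloured by its call, and black bars are list medians, which run from -1.90 for G2 and mitosis to 1.10 for the protocadherin beta cluster.

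ID2 had the largest fall of all genes measured. It encodes an inhibitor that pairs with basic helix-loop-helix factors and keeps them off DNA, which holds progenitors in an immature state. Its values were 7.94 and 8.06 in NDF and 2.96 and 3.39 in DF, a 28.3-fold fall (log2 difference -4.82, SE 0.15, adjusted p = 2.98e-07). The DF values were near the lower quartile of the arrays, where a fold change is compressed by background. ID1 fell 3.54-fold, from 5.98 and 5.94 to 4.30 and 3.97, and ID3 3.32-fold, from 6.09 on both arrays to 4.29 and 4.43. ID4, by contrast, was not called, at 6.39 and 6.46 in NDF against 6.43 and 6.48 in DF. ID genes are targets of BMP signaling, and 2 further genes of that list fell: BAMBI, a decoy receptor, by 1.0 and SMAD6, an inhibitory SMAD, by 0.83. The list held 24 genes in all, of which 5 fell and 2 rose. BMPR1B, a type I BMP receptor, rose 2.34-fold, from 5.51 and 5.52 to 6.65 and 6.82. BMPER, a secreted BMP modulator, rose by 0.72, and was at 0.59 (adjusted p = 0.068) without NDF replicate 3, which left BMPR1B alone.

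The factors that give sympathetic neuroblasts their noradrenergic identity were called lower in 5 of 19 cases and higher in none (median -0.31). LMO4, a LIM-only protein, fell 2.35-fold from 4.72 and 4.63 to 3.50 and 3.38. SOX11, a SoxC factor of immature neurons, fell by 0.96, from 8.44 and 8.35 to 7.49 and 7.38. The others were LMO1 at -0.68, LMO3 at -0.62 and TBX2 at -0.73. Without DF replicate 1 the count was 3, with TBX2 at -0.64 (adjusted p = 0.075) and LMO3 at -0.57 below the limits, and TBX2 was also not called without either NDF array, at -0.71 and -0.75. GATA3 (-0.57, adjusted p = 0.00281, called at -0.62 without DF replicate 2) and HAND2 (-0.34, adjusted p = 0.0372) passed the test but not the fold limit, and PHOX2A, at 7.80 and 7.77 in NDF and 7.47 and 7.62 in DF, was not called. Across 19 SOX factors, SOX11 and SOX5 fell and none rose. SOX5, at -0.66, was -0.53 (adjusted p = 0.099) without NDF replicate 2 and -0.64 (adjusted p = 0.056) without DF replicate 1.

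Transmitter genes changed in both directions. In the catecholamine list, 2 of 17 genes rose and 2 fell. SLC6A2, the noradrenaline transporter, fell 2.99-fold, from 8.27 and 8.20 to 6.71 and 6.59, and DDC, the decarboxylase that makes dopamine, fell 2.13-fold, from 8.55 and 8.42 to 7.27 and 7.51. GCH1, the first enzyme in the synthesis of the cofactor of tyrosine hydroxylase, rose 2.75-fold, from 7.31 and 7.23 to 8.65 and 8.80. SLC18A1, a vesicular monoamine transporter, rose by 0.66, but was at 0.57 (adjusted p = 0.062) without NDF replicate 3 and at 0.52 without DF replicate 2, which left GCH1 alone. TH, tyrosine hydroxylase, was low throughout, at 4.34 and 4.21 in NDF against 4.60 and 4.27 in DF, with no call, and DBH differed by -0.52, under the fold limit. Of 23 cholinergic genes, 3 rose and 2 fell. The muscarinic receptors were the extremes, with CHRM2 falling 6.47-fold, from 7.25 and 7.0 to 4.49 and 4.38, and CHRM3 rising 3.06-fold, from 3.64 and 3.80 to 5.32 and 5.34. Both changes kept the conditions far apart on the arrays. ACHE, acetylcholinesterase, rose by 0.78 and the nicotinic subunit CHRNA7 by 0.87, while CHRNB4 fell by 0.68. CHAT, which makes acetylcholine, was not called, at 4.04 and 4.02 in NDF against 3.96 and 3.82 in DF.

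Synaptic vesicle and exocytosis genes rose in 10 of 49 cases and fell in 2, with a median of 0.22. CADPS, a priming factor for dense-core vesicles, went from 4.58 and 4.38 to 7.44 and 7.45, a 7.80-fold rise. SYN2, a synapsin that tethers vesicles, rose 2.51-fold, from 6.26 and 6.30 to 7.50 and 7.72, and the calcium sensors SYT5, SYT9, SYT11 and SYT13 rose by 0.75 to 1.28. PCLO, the active zone scaffold Piccolo, rose by 0.80. The vesicle protein SYP, synaptophysin, rose by 0.67, but stood at 0.57 without NDF replicate 2 and 0.54 without DF replicate 2, both under the fold limit. RPH3A, a Rab3 effector, fell 7.76-fold, from 6.99 and 6.87 to 3.89 and 4.06, and was among the 5 largest falls of all genes. DOC2B, another calcium-binding exocytosis protein, fell by 1.0. SNAP25, the synaptic SNARE, lay at 8.90 and 8.89 in NDF and 8.96 and 9.03 in DF, with no call.

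Secretory granule genes rose in 3 of 11 cases. CHGB, chromogranin B, rose 2.69-fold, from 6.59 and 6.39 to 7.87 and 7.97, and SCG2, secretogranin II, 2.39-fold, from 6.48 and 6.28 to 7.61 and 7.67. PTPRN2, a granule membrane protein, rose by 0.61, and was 0.53 without NDF replicate 3. Of 18 neuropeptides, 2 were called lower, none higher and 16 not at all, with a list median of 0.04. NPY, the peptide released with noradrenaline, fell 2.27-fold, from 7.29 and 7.16 to 5.96 and 6.12, and NMU fell 2.89-fold, from 5.50 and 5.68 to 4.02 and 4.10.

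Neuronal cytoskeleton and growth cone genes rose in 12 of 46 cases and fell in 3. DPYSL3, a collapsin response mediator that binds tubulin, rose 5.39-fold, from 6.58 and 6.66 to 9.03 and 9.07. ANK2, an ankyrin that anchors membrane proteins to spectrin, rose 2.90-fold and the doublecortin-like kinase DCLK1 2.42-fold. The motor KIF5A rose by 1.13, the microtubule proteins MAP6 by 0.99 and MAP1B by 0.67, and the neurofilament subunit NEFM by 0.74. MAPT, tau, rose by 0.64, and was at 0.62 (adjusted p = 0.068) without NDF replicate 3 and 0.57 without DF replicate 1. GAP43, the growth cone protein often used as a sign of neurite extension, fell by 0.74, from 9.41 and 9.35 to 8.54 and 8.74. STMN2 was at 11.33 and 11.35 in NDF against 11.23 and 11.30 in DF. NEFL was at 8.67 and 8.80 against 8.76 and 8.89, so neither of these abundant neuronal genes was called. MAP2 differed by 0.57, just under the fold limit, and was called at 0.66 without DF replicate 1.

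Axon guidance genes fell more often than they rose, with 9 of 66 lower and 4 higher. SEMA3C, a secreted semaphorin, went from 8.66 and 8.79 to 5.81 and 5.82, a 7.51-fold fall. Other semaphorins fell as well: SEMA3A by 1.16, SEMA6A by 1.0 and SEMA5A by 0.82, while SEMA6D rose by 0.86. The level of SEMA3A in DF, 2.91 and 2.82, was under the lower quartile of the arrays, so its fold change may be understated. The netrin receptor UNC5D fell by 1.31, and NTNG1 (-0.78) and SLIT2 (-0.76) fell as well. PLXNA1, a semaphorin co-receptor, was at -0.68, and at -0.54 (adjusted p = 0.0636) without NDF replicate 2. NTNG2, the membrane-anchored netrin G2, rose 2.96-fold, from 5.31 and 5.37 to 6.86 and 6.95, whereas NTNG1 fell. Likewise SLIT1 rose by 1.21 and SLIT2 fell. EPHA6 rose by 1.22.

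Neural adhesion molecules were called in 15 of 43 cases, 10 higher and 5 lower. NCAM2, an immunoglobulin adhesion molecule, had the second largest rise of all genes, from 4.73 on both NDF arrays to 8.27 and 8.39, or 12.1-fold (log2 difference 3.6, SE 0.10, adjusted p = 2.33e-07). NRXN3, a presynaptic neurexin, rose 3.50-fold, from 3.10 and 3.04 to 4.65 and 5.10. L1CAM rose by 0.97, CADM1 by 1.05 and NFASC, neurofascin, by 0.90. Some adhesion genes fell. CNTN4, a contactin, fell 6.03-fold, from 7.29 and 7.20 to 4.61 and 4.69, and the contactin CNTN1 3.99-fold, from 9.16 on both NDF arrays to 7.05 and 7.27. The contactin partner CNTNAP2 fell 5.78-fold, from 6.74 and 6.87 to 4.37 and 4.18, whereas its relative CNTNAP5 rose 2.44-fold. Of 17 classical cadherins only CDH11 was called, higher by 0.60, with 0.57 without NDF replicate 3 (adjusted p = 0.053) and 0.58 without DF replicate 2, so that none was called then. Without NDF replicate 2 or DF replicate 1, 2 cadherins were called higher.

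The protocadherin beta genes, which stand in 1 cluster on chromosome 5 and encode adhesion proteins whose combinations differ between neurons, rose as a group. Of 18 measured, 15 rose and none fell, with a median of 1.10, and all 18 differences were above 0. The largest rises were PCDHB17P, a pseudogene, at 1.48, PCDHB5 at 1.47 and PCDHB13 at 1.43. PCDHB5 went from 6.23 and 5.98 to 7.54 and 7.62, and PCDHB13 from 4.03 and 3.82 to 5.40 and 5.30. The genes are near copies of each other, so their probes may share signal and the 15 rises are not independent of each other.

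**Figure D3:**
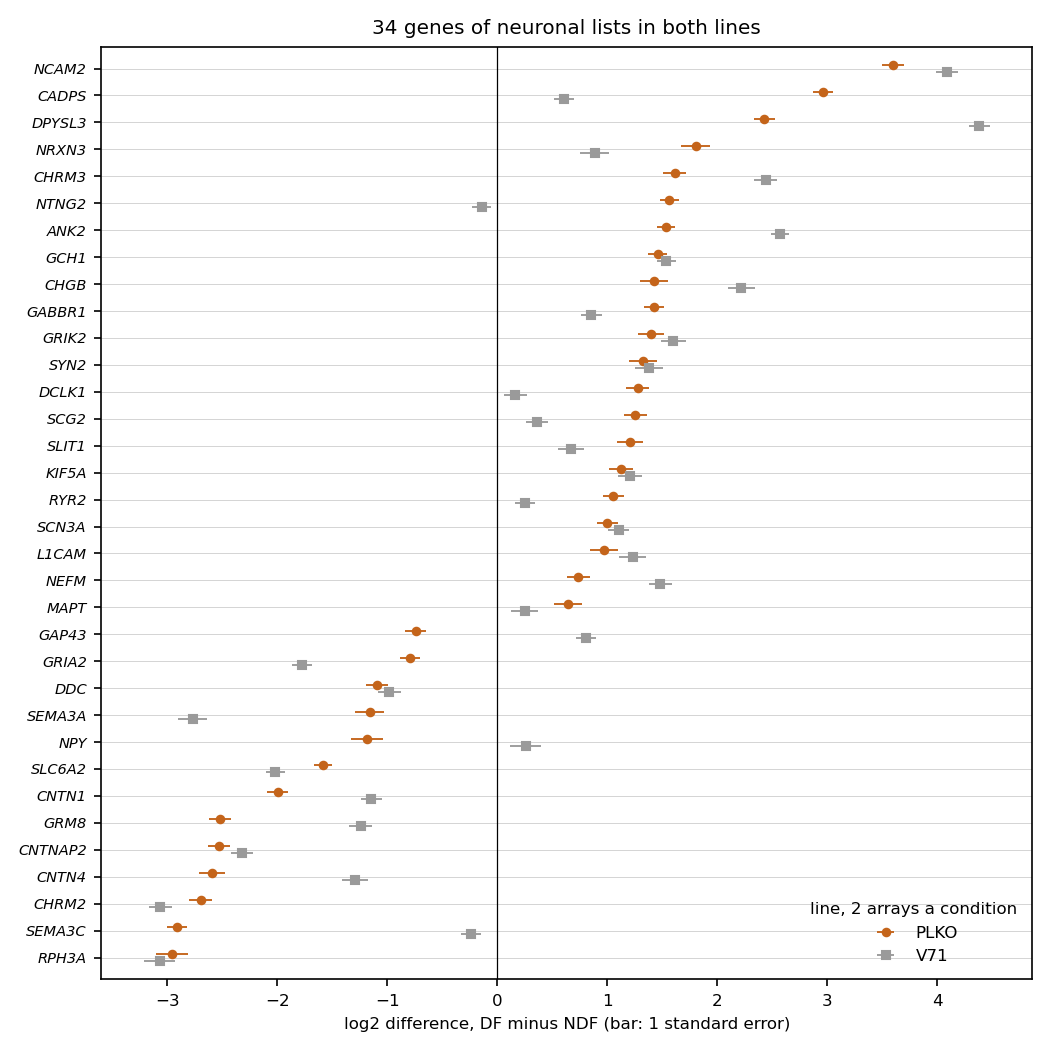
Log2 difference between DF and NDF (x axis, bars are 1 standard error) for 34 genes of the transmitter, synapse, cytoskeleton, guidance, adhesion and channel lists (y axis). Circles are PLKO and squares V71, each from 2 arrays a condition. SEMA3C, at -2.91 in PLKO and -0.24 in V71, and GAP43, at -0.74 and 0.81, lie apart in the lines, while RPH3A and SYN2 lie together.

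Matrix genes were mixed, with 3 of 45 higher and 5 lower. TNR, tenascin R, rose 5.28-fold, from 6.07 and 6.16 to 8.49 and 8.53, and the proteoglycan VCAN, versican, rose by 0.65. NCAN, neurocan, rose by 0.62, and was at 0.48 (adjusted p = 0.1) without NDF replicate 2 and 0.50 (adjusted p = 0.077) without DF replicate 1. The falls were in basement membrane components: LAMA1, a laminin chain, fell 2.57-fold, NID1, nidogen, 2.09-fold, and the collagens COL4A1 and COL4A2 by 0.84 and 0.83 on the log2 scale. FN1, fibronectin, fell 2.47-fold, from 5.48 and 5.40 to 4.13 on both DF arrays. Of 17 integrins, ITGA4 fell by 1.15 and ITGA9 by 0.68, and none rose, although 1 was called higher without NDF replicate 2 or DF replicate 1.

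Neuroblastoma cultures can hold flat, substrate-adherent cells (S-type) beside the neuroblastic (N-type) ones. Of 38 S-type markers, 8 fell and 1 rose, and the list median was -0.04. With dim rows left out, 5 were called lower. VIM, vimentin, fell 3.33-fold, from 4.77 and 5.12 to 3.25 and 3.17, and SNAI2, the transcription factor Slug, 2.75-fold, from 6.43 and 6.61 to 5.04 and 5.08. EGFR fell 3.15-fold, from 6.74 and 6.45 to 4.97 and 4.91. LOX, which cross-links collagen, fell by 1.2 and DCN, decorin, by 1.07, and FN1 was in this list too. TIMP1 rose by 0.65, and was at 0.54 (adjusted p = 0.11) without NDF replicate 3 and 0.53 (adjusted p = 0.075) without DF replicate 2. The log2 of the summed linear values of the S-type markers was 11.18 and 11.19 in NDF and 10.98 and 11.02 in DF, the NDF values being the higher, and 4 of the markers were below the lower quartile in both conditions. Of 18 N-type markers 3 rose (CHGB, NEFM and SLC18A1) and 3 fell (SLC6A2, DDC and GAP43). The part of a change in the mixture of these cells in the other results was not tested.

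Among 45 calcium channels, pumps and related genes, 9 rose and 1 fell. RYR2, a calcium release channel of the endoplasmic reticulum, rose 2.08-fold, from 3.76 and 3.73 to 4.78 and 4.83. The channel subunits CACNA2D1 and CACNA2D2 rose by 1.02 and 0.90, and CACNA1E, which forms R-type channels, by 0.87. ATP2B1, a pump that expels calcium across the plasma membrane, rose by 0.60. CALB1, the buffer protein calbindin, was the exception at -0.68 (adjusted p = 0.0293), and without NDF replicate 3 it was at -0.57 (adjusted p = 0.21). Its call was also lost without each of the other 3 PLKO arrays, at -0.79, -0.62 and -0.74. Both sodium channels that rose, of 13 measured, are neuronal alpha subunits: SCN2A, from 6.99 and 7.09 to 7.98 and 8.04, and SCN3A, from 6.91 and 6.88 to 7.79 and 8.0. Potassium channels changed little as a group, with 2 of 52 higher and 2 lower, shares close to those of all genes. KCNG1 and KCNK9 rose by 0.87 and 0.64, and KCNJ8 and KCNQ5 fell by 1.04 and 0.87. The latter forms the M-current that restrains firing.

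Receptors for glutamate and GABA were called in 7 of 33 cases. GABBR1, a subunit of the GABA-B receptor, rose 2.68-fold, from 6.06 and 6.03 to 7.41 and 7.53, and the kainate receptor GRIK2 rose 2.63-fold, from 7.23 and 7.10 to 8.53 and 8.59. The AMPA receptor subunit GRIA1 rose by 0.68, and was at 0.54 without DF replicate 1. The subunit GRIA2, which makes AMPA receptors impermeable to calcium, fell by 0.79, from 7.88 and 7.77 to 6.97 and 7.10. The metabotropic receptors GRM8 and GRM7 fell 5.73-fold and 2.54-fold. RNA-binding proteins of neurons were called in 7 of 26 cases. PTBP1, a repressor of neuronal exons, fell by 0.81, from 8.85 and 8.73 to 8.04 and 7.93, and MBNL3 and KHDRBS3 fell by 1.01 and 0.69. CELF2 and CPEB4 rose by 0.98 and 0.96, CPEB3 by 0.60 and RBFOX2 by 0.63. Without DF replicate 2, CPEB3 (0.45) and RBFOX2 (0.57) were under the fold limit and 2 of the 4 rises were left, and CPEB3 was at 0.58 without NDF replicate 3.

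Signaling genes gave few calls for each pathway. Wnt genes rose in 4 of 51 cases and fell in none, though 1 was called lower without DF replicate 1. DKK2, a secreted Wnt modulator, rose 6.54-fold, from 6.36 and 6.14 to 8.84 and 9.08, and LGR5, a receptor for R-spondins, rose by 0.81. DKK3 rose by 0.80 in the brightest of its rows, while its first row gave 0.18, which was not called. Of 22 Notch genes 2 fell. DLK1, an atypical ligand of immature chromaffin and neuroblastoma cells, fell 4.33-fold, from 7.93 and 7.98 to 5.81 and 5.87, and JAG1 fell by 0.77. Of 17 IGF genes, IGF1R, the growth factor receptor, rose 2.92-fold, from 6.14 and 6.0 to 7.66 and 7.58, and IGFBP5, which binds the ligand outside the cell, fell 6.85-fold, from 8.16 and 7.89 to 5.15 and 5.35. A further IGF gene was called lower without NDF replicate 3, making 2. Receptor tyrosine kinases outside the neurotrophin family fell in 3 of 31 cases and rose in none, or in 1 without DF replicate 1. Beside EGFR these were FGFR2, at -1.10, and the collagen receptor DDR2, at -0.92.

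Metabolic genes moved mostly downwards where they moved. Of 30 glycolysis and hypoxia genes, 6 fell and 1 rose. LDHA, lactate dehydrogenase A, fell 2.07-fold, from 9.94 and 10.04 to 8.96 and 8.92, HK2, hexokinase 2, fell by 0.94 and the oxygen sensor EGLN3 by 0.99, whereas NDRG1 rose by 1.0. The amino acid stress genes driven by ATF4 fell in 5 of 30 cases. The serine and folate enzymes PHGDH, SHMT2 and MTHFD2 fell by 0.71, 0.82 and 0.63. DDIT4 was at -0.73, and at -0.56 without DF replicate 1. None of 50 subunits of oxidative phosphorylation was called in either direction by limma, with a median of -0.16. Of 47 ribosomal proteins only RPS24 was called, at -0.62, which was -0.52 without NDF replicate 3 and -0.56 without DF replicate 1, so that no ribosomal protein was called in those cases. RPS9, the reference transcript of the study for PCR, was 9.48 and 9.63 in NDF and 9.35 and 9.39 in DF. Sterol synthesis gave TM7SF2, a sterol reductase, at 1.22 and FDPS at -0.67, with FDPS at -0.55 without DF replicate 1, when none was called lower, and 2 of 19 called lower without DF replicate 2.

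Stress and survival genes gave single calls. Of 20 chaperones of the endoplasmic reticulum, ERO1B rose by 0.82 and MANF fell by 0.63, or 0.53 without DF replicate 1, below the limit. In the p53 list of 26, PLK2, a polo-like kinase of synapses, rose 5.27-fold, from 4.50 and 4.45 to 6.81 and 6.94, and PMAIP1, the BH3 protein Noxa, fell by 0.93. BCL2, which protects cells from apoptosis, rose 2.74-fold, from 6.48 and 6.24 to 7.86 and 7.77, and was the only 1 of 15 family members that rose, with 2 called when NDF replicate 2 or DF replicate 2 was left out. Of 35 interferon-induced genes, RIGI rose by 0.95 and HERC5 fell by 0.72. HERC5 was at -0.55 without NDF replicate 3. These shares lay close to the background of all genes.

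**Figure D4:**
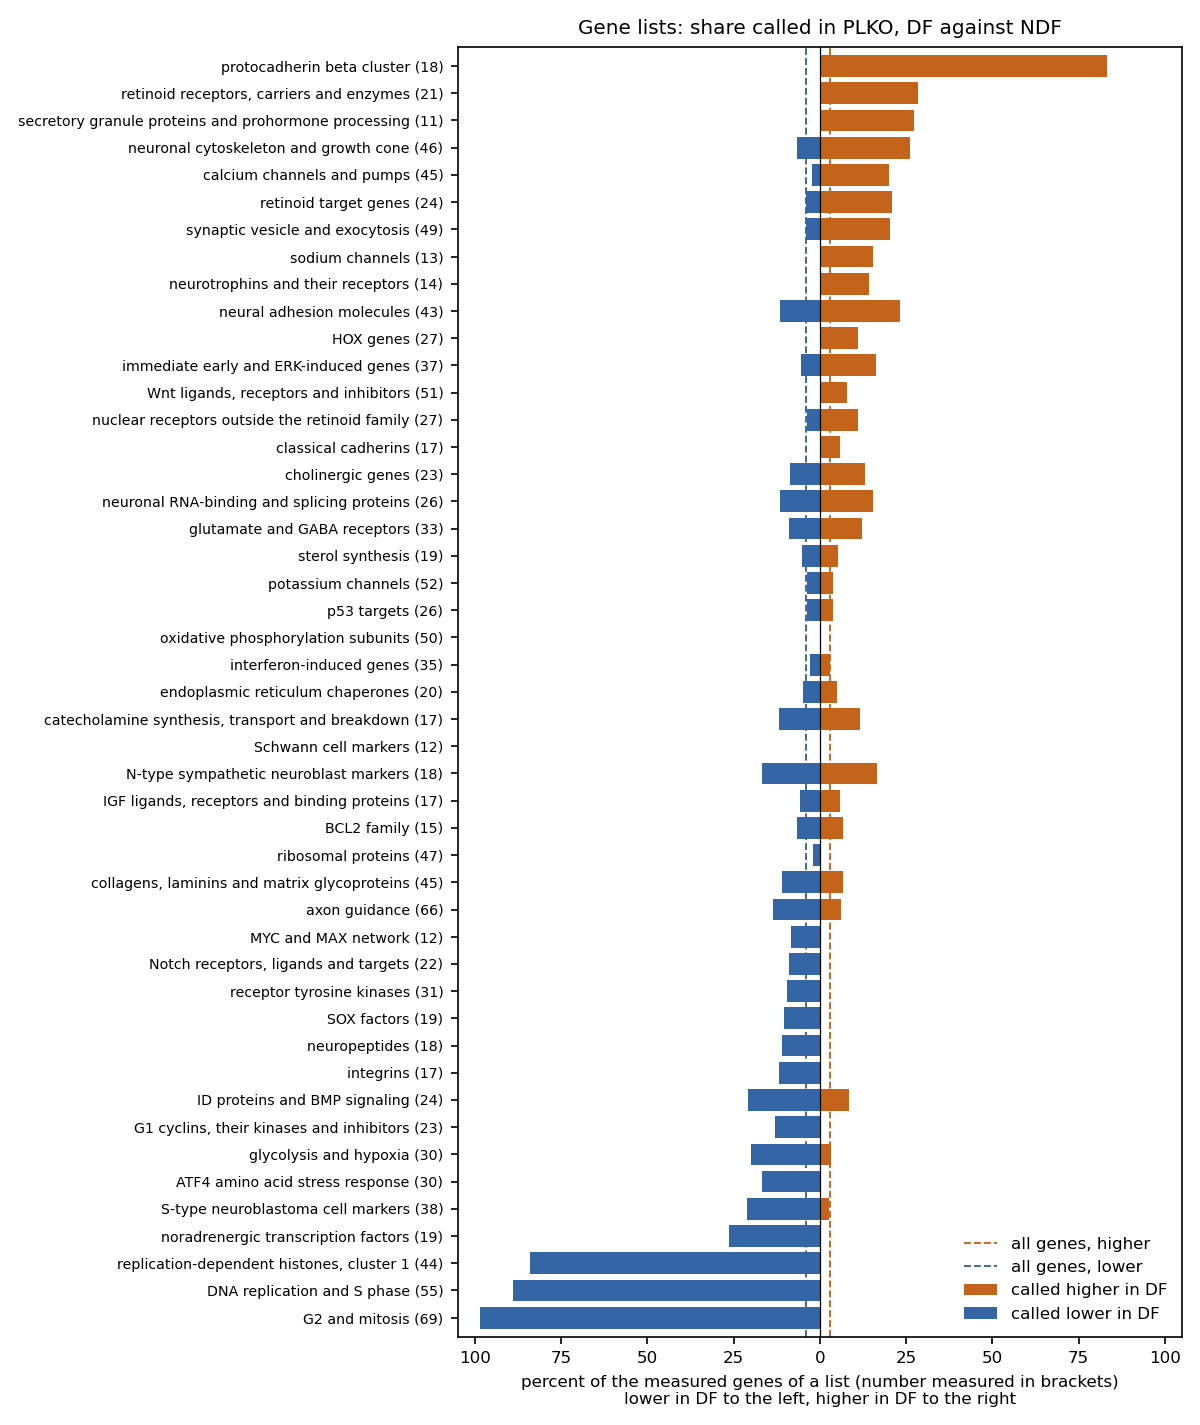
Percent of the measured genes of 47 lists (y axis, number measured in brackets) that were called higher (right) or lower (left) in DF against NDF in PLKO. Dashed lines are the shares over all genes, 2.88% higher and 4.16% lower. The lists of cell division lie furthest to the left and the protocadherin beta cluster furthest to the right.

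Several of the largest changes lay outside the lists. ARHGAP20, a GTPase activating protein, rose 9.90-fold, from 3.31 and 3.06 to 6.44 and 6.54. DLG2, the postsynaptic scaffold PSD-93, rose from 2.72 and 3.04 to 5.49 and 5.91. RGS13, which turns off G proteins, rose from 2.85 and 3.09 to 5.44 and 5.51. The NDF means, 2.88 for DLG2 and 2.97 for RGS13, lay below the lower quartile of the arrays. In both, the NDF mean is near background and the fold may be understated. DOCK9, which activates CDC42, rose 5.32-fold, ANKRD6 5.99-fold and MAB21L2 5.30-fold, the last with NDF arrays as far apart as 4.09 and 3.31. Among the falls, PDE3A, a phosphodiesterase of cyclic nucleotides, went from 5.73 and 5.98 to 3.04 and 2.92, and TFPI2, a secreted protease inhibitor, from 7.24 and 7.14 to 4.44 and 4.64. GAS2L3, a cytoskeletal linker of dividing cells, fell 6.40-fold.

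The array also carries probes for miRNA genes, which read the precursor or its host transcript and not the mature form. Of 173 measured as single genes, 2 were called, both higher, a smaller share than the 2.88% over all genes. They were named after their values were seen. MIR21 gave 3.83 and 3.89 in NDF and 4.81 and 4.67 in DF, a rise of 0.88 (SE 0.11, adjusted p = 0.000751). The mature sequence in RefSeq (GRCh38.p14, chr17:59841273-59841294, + strand) is shown with its seed, bases 2 to 8, in capitals.
hsa-miR-21-5p: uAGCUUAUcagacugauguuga
MIR331 differed by 0.74 (adjusted p = 0.0355), and its call was lost without any 1 of the 4 PLKO arrays, with values of 0.58 to 0.89.

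The change in PLKO was then compared with that in V71 by the difference of the 2 changes, in 1 model over all 8 arrays. This difference was called for 256 of 18377 genes (1.39%), of which 56 had a PLKO change above that in V71 and 200 below it. V71 itself had 731 genes higher and 652 lower. Of the 529 genes that rose in PLKO, 341 rose in V71 (64.5%, or 46.6% of those of V71), and of the 764 that fell, 512 fell in V71 (67.0%, or 78.5%). Of the genes called in PLKO but not in V71, 186 rose and 245 fell, yet the difference between the lines was called for only 21 and 42 of these. Most genes called in 1 line only were therefore not shown to differ between the lines. The 256 calls lean on the spread borrowed across genes: without this moderation 3 genes were called (SORCS1, RFTN1 and ETV1, all with the PLKO change below that in V71). Leaving out PLKO NDF replicate 2 or 3 gave 130 and 120, and PLKO DF replicate 1 gave 147. Without V71 NDF replicate 2 or 3 the count was 163 and 162, and without V71 DF replicate 1 it was 138.

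NTRK2 rose equally in both lines (log2 difference 4.71 in PLKO and 4.73 in V71), with a difference between the changes of -0.02 (SE 0.15, adjusted p = 0.986). The retinoid genes were not uniform. DHRS3 rose further in PLKO, by 1.28 on the log2 scale (adjusted p = 0.00147), and CRABP2 less, by -1.78 (adjusted p = 0.000458), while RARB, at -0.76, did not pass (adjusted p = 0.138). In the list of G2 and mitosis, 11 of 69 genes fell further in PLKO than in V71 and none less, among them HMMR by -1.27, DLGAP5 by -1.05 and CENPE by -0.94. None of these 3 calls held under the replicate block, and leaving out single arrays ended that of HMMR for 3 of the 8 arrays, that of DLGAP5 for 6 and that of CENPE for 7. The medians were -1.90 in PLKO and -1.37 in V71, where 66 genes fell. No S phase gene passed. ID2 fell further in PLKO as well, by -1.65 (adjusted p = 0.00579).

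Neuronal genes held differences of both signs. The largest excess in PLKO over V71 was in VCAN, at 2.46, since it rose by 0.65 in PLKO and was called lower in V71, at -1.81. CADPS (2.36), ARHGAP20 (2.26) and NTNG2 (1.71) also rose further in PLKO. In NDF, CADPS was at 4.58 and 4.38 in PLKO and already at 6.55 and 6.58 in V71. In DF it was at 7.44 and 7.45 against 7.18 and 7.16. ARHGAP20, in contrast, had an NDF mean of 3.18 in both lines. DCLK1 and SCG2 rose by 1.28 and 1.26 in PLKO, against 0.17 and 0.37 in V71, and the call for the difference of SCG2 was lost for 6 of the 8 arrays left out in turn. The reverse held for DPYSL3 (-1.96), ANK2 (-1.03), SPRY1 (-1.44) and TNR (-1.13), which rose in both lines but less in PLKO. The call for TNR was lost for 4 of the 8 arrays. In NDF the means of DPYSL3, SPRY1 and TNR were 6.62, 6.24 and 6.11 in PLKO against 5.09, 4.33 and 3.63 in V71. ANK2 started level, with NDF means of 7.79 and 7.76. SEMA3C fell by 2.91 in PLKO and had a difference of -0.24 in V71, which was not called. The difference between its changes was -2.67 (adjusted p = 5.75e-05). Its NDF values were 8.66 and 8.79 in PLKO and 5.65 and 5.77 in V71. In DF they were 5.81 and 5.82 against 5.54 and 5.41, so the lines stood apart mainly in NDF. The largest difference between the changes was that of PDE5A, a cyclic GMP phosphodiesterase, at -2.92. It fell from 5.27 and 5.34 to 3.17 and 3.22 in PLKO and had a difference of 0.81 in V71. NOS1, the neuronal nitric oxide synthase, rose in both lines, from 4.14 and 4.06 to 6.29 and 6.45 in PLKO, and its rise was smaller there by -2.58. GAP43 and SPRY2 fell in PLKO and were called higher in V71, by 0.81 and 0.75, with differences of -1.55 and -1.71 between the lines. Of the S-type markers, 6 of 38 changed in the negative direction in PLKO relative to V71, VIM (-1.44) and SNAI2 (-1.11) among them. VIM started near background in V71, at 3.17 and 3.23 in NDF, and was at 3.02 and 2.80 in DF, which left little room for a fall. The study also chose a calcium-binding list and a cytoskeleton-binding list on these arrays, giving the first for its control cells and the second for its cells with the shRNA. Of 21 calcium-binding symbols 20 were measured as single genes, and all 20 rose in PLKO and 7 in V71, where 2 fell. Of 24 cytoskeleton-binding symbols 21 were measured, and of these 2 rose and 1 fell in PLKO (4 and 2 without DF replicate 1, and 2 lower without NDF replicate 3), while all 21 rose in V71. The difference between the lines was called for 7 of the 20, all with the PLKO change above that in V71. It was called for 8 of the 21, all with the PLKO change below that in V71. The 7 histones above were called lower in PLKO and 5 of them in V71, with the difference called for none. The study chose these lists for a change in only 1 of its lines. Their counts therefore cannot decide which line carried the shRNA. Which line carried the shRNA was not tested. Because the lists were chosen on these arrays, the counts add nothing independent about direction.

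**Figure D5:**
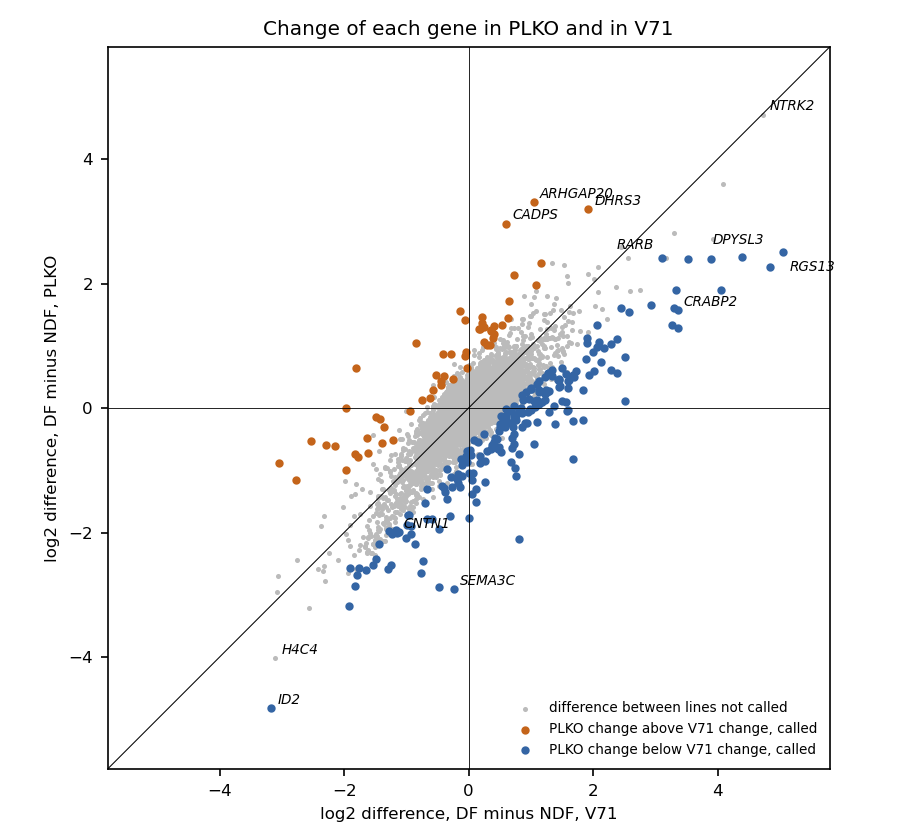
Log2 difference between DF and NDF in V71 (x axis) and in PLKO (y axis), 1 point for each of 18377 genes. Coloured points are the 56 genes with a PLKO change above (orange) and the 200 with a PLKO change below (blue) that in V71 by the test of the difference, and the line marks equal changes. NTRK2 lies on the line and SEMA3C, at -2.91 and -0.24, far from it.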

How the data were processed

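RNA of 8 cultures was labelled and hybridised by the authors to Affymetrix Human Gene 1.0 ST arrays. The deposited log2 values are, per the labels and methods, RMA expression made in Partek Genomics Suite 6.5, and the authors then used ANOVA with a false discovery rate of 0.05 and 1.5-fold. The original intensities were not used here, and arrays give no read depth, so the number of arrays limits the precision.

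Of 28869 rows, 19310 carry 1 gene, 1752 several and 7807 none in the platform annotation. The brightest row stood for each of 18377 genes (685 have several rows), of which 18349 matched RefSeq. A single model with a mean for each of the 4 groups was fitted to all rows in limma 3.58.1 (R 4.3.3), tested on simulated data first, with 4 residual and 5.43 prior degrees of freedom. Benjamini-Hochberg adjustment covered all rows. A call needs adjusted p under 0.05 and 1.5-fold. The p-values rest on the spread between replicate cultures within a line, pooled over both lines and moderated across genes. Group means under the mean lower quartile of their arrays (3.002 to 3.063 on single arrays) were treated as near background.

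The genes and 50 gene lists were chosen with earlier results of these data known. The genes named were the 15 largest rises and falls, up to 3 rises and 3 falls in each list, marker genes, and the 10 largest differences between the lines in each direction. Further list members and the miRNA genes were named after their values were seen. Lists are described by counts and medians beside those of all genes. Motifs were searched in RefSeq promoters. Alternatives were other priors, scalings, filters and fold limits, other rows of a gene, the PLKO arrays alone, a replicate block and leaving out each array. Some genes are not reported here.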

Additional observations from a re-analysis of the deposited data

Results flagged for a closer look

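For the following genes the change in PLKO differed from that in V71 by the test of the difference itself (adjusted p under 0.05 in limma and at least 1.5-fold), and the value given is the PLKO change minus the V71 change on the log2 scale. These calls use the variance shared across genes, and without that moderation only SORCS1 (-1.35), RFTN1 (-1.93) and ETV1 (-1.56) among all genes were called. These differences alone do not tell whether the lines stood apart in NDF, in DF or in both, but group means do. TFPI2 stood apart mainly in NDF, with means of 7.19 in PLKO and 4.30 in V71, and 4.54 and 3.53 in DF. NTNG2 stood apart mainly in DF, with 6.91 and 4.79 there and 5.34 and 4.93 in NDF.

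The PLKO change was above that in V71 for ARHGAP20 (2.26), DHRS3 (1.28), CADPS (2.36), NTNG2 (1.71), VCAN (2.46), DCLK1 (1.11), SCG2 (0.89), RYR2 (0.81), CACNA2D1 (0.67), BCL2 (0.82), CHRNA7 (1.15) and KCNG1 (1.28). BAMBI (0.97), GRIA2 (0.99) and SEMA3A (1.61) fell in PLKO, with a change above that in V71. SEMA3A ended below the lower quartile of the arrays in DF in both lines (means 2.86 in PLKO and 3.0 in V71) from 4.02 and 5.77, so its difference is bounded by the background.

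Among genes that rose in PLKO, the change was below that in V71 for RGS13 (-2.55), NOS1 (-2.58), CNTNAP5 (-2.08), DPYSL3 (-1.96), CRABP2 (-1.78), PLK2 (-1.49), SPRY1 (-1.44), CDH11 (-1.42), SYT9 (-1.26), TNR (-1.13), DUSP6 (-1.10), ANK2 (-1.03), CADM1 (-0.86), CHRM3 (-0.83), ESRRG (-0.79), HOXD4 (-0.73) and DOCK9 (-0.70).

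Among genes that fell in PLKO, the change was below that in V71 for PDE5A (-2.92), SEMA3C (-2.67), PDE3A (-2.39), TFPI2 (-1.88), SPRY2 (-1.71), ID2 (-1.65), GAP43 (-1.55), VIM (-1.44), NPY (-1.44), CNTN4 (-1.30), GRM8 (-1.28), HMMR (-1.27), ITGA4 (-1.21), SNAI2 (-1.11), DLGAP5 (-1.05), GRM7 (-0.96), JAG1 (-0.96), CENPE (-0.94), FGFR2 (-0.94), DCN (-0.90), GAS2L3 (-0.88), CNTN1 (-0.85) and NMU (-0.82). SNAP25 (-1.08) and MYCN (-0.65), not called in PLKO itself, had the same sign of difference between the lines.

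Of these 60 genes, 34 kept the call without each of the 8 arrays in turn. BCL2, CACNA2D1, HOXD4 and MYCN lost it whichever array was left out. These 4 and CENPE also lost it under another scaling. BAMBI, CENPE, CHRM3, CHRNA7, CNTN1, DCN, DLGAP5, DOCK9, ESRRG, FGFR2, GAS2L3, GRM7, NMU, RYR2 and SCG2 lost it for 5 to 7 of the arrays, and CADM1, GRIA2, HMMR, JAG1, KCNG1, NPY and TNR for 1 to 4. Under the replicate block 11 lost it: BAMBI, BCL2, CACNA2D1, CENPE, DLGAP5, DOCK9, HMMR, HOXD4, MYCN, NMU and RYR2. Background also bounds PDE3A, which had means of 3.33 in NDF and 2.85 in DF in V71, and VIM, with 3.20 and 2.91. DCN was below the lower quartile in both conditions in V71, and RGS13 in NDF in PLKO.

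Rows of the array that the gene counts left out also changed in PLKO. Of 7807 rows with no gene in the annotation, 85 were higher and 75 lower in DF. Of 1752 rows with several genes, 35 were higher and 48 lower. All of these are smaller shares than those over all genes, 2.88% higher and 4.16% lower.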

How the results depend on the processing

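The count of genes that changed in PLKO, 1293 (529 higher, 764 lower), was 525 (159 and 366) at a fold limit of 2 and 2895 (1467 and 1428) with adjusted p alone. It was 920 (357 and 563) without moderation of the variance, and 1271 to 1297 with another prior, scaling, filter, array weights, row of a gene or with the PLKO arrays alone. Leaving out 1 PLKO array gave 1199 to 1360 genes, 473 to 632 of them higher and 718 to 865 lower, with the lone array of a group assumed to vary like the others. The scalings moved the median of all genes to between -0.001 and 0.015, and 37.8% to 41.4% of the called genes were higher. The count of differences between the lines, 256 (56 above, 200 below), was 3 without moderation, 0 of them above, 133 (29 and 104) at a fold limit of 2, and 120 to 230 (23 to 45 and 97 to 185) with 1 of the 8 arrays left out, and the cause was not tested. Whether the replicate numbers pair the samples could not be settled. Same-numbered arrays had deviations that correlated between -0.1764 and 0.1881, and PLKO NDF and DF share only number 2. With 2 arrays a group the deviations mirror each other, so few of these values are distinct. With a replicate block the counts were 1334 (604 and 730) and 190 (40 and 150). Of 100 counts of list members (50 lists, 2 directions), 9 moved by over 1.5 times under the block, among them the noradrenergic factors from 5 lower to 3, and 21 moved without moderation, among them the retinoid receptors, carriers and enzymes from 6 higher to 3. Of the 188 named genes that were called, 149 were called under all 15 alternatives that keep the 1.5-fold limit, and 32 lost the call without moderation. The difference of ID4 reversed under cyclic loess (-0.002), under the replicate block (-0.14) and without NDF replicate 2 (-0.005, the range over the 4 left-out arrays reaching 0.059), and that of STMN2 with quantile normalization again (0.089) and cyclic loess (0.005). Neither gene was called in any of these.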
